A study of Mus musculus with 16 samples.

Results

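The genes described here are Gvin1 and 4 copies of it that lie beside it on mouse chromosome 7: Gm4070, Gm8979, Gm8989 and Gm27149. They were the rows carrying these 5 names in each of 3 deposited count tables, which list 52636 genes for crypts, 54532 for organoids of the KOIEC experiment and 52636 for organoids of the KOCAG experiment. All 5 genes were present in all 3 tables and passed the low-count filter in all 3. They had been singled out because they were far lower in KOCAG organoids than in their WT control, so that difference is given as a description with no test, and the tests concern the other experiments and the genes around the cluster.

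The study deleted Cul4b, an X-linked gene for the scaffold of a ubiquitin ligase, in the small intestine of C57BL/6 mice and sequenced total RNA from 16 libraries. Crypts, the pits of the epithelium that hold its stem cells, came from 4 WT (Cul4b fn/Y) and 4 KOIEC (pVillin-Cre; Cul4b fn/Y) libraries. In KOIEC mice Cre is made in the intestinal epithelium from the Villin promoter, so epithelial cells carry the deletion and other cells of a crypt preparation do not. Organoids, which are crypts grown in Matrigel into budding epithelial spheres, came from 2 WT and 2 KOIEC libraries in one experiment and from 2 WT and 2 KOCAG libraries in another. KOCAG organoids carry CAG-CreERT2 with Cul4b fn/Y, so that the gene can be lost in every cell type once tamoxifen, the drug that activates CreERT2, is given. The paper reports that this model was treated with tamoxifen before sequencing. The sources used here do not say whether the WT organoids of that experiment carried Cre or were given the drug. The study's methods call the libraries of a group biological replicates, and the sources used here do not say for organoids whether these were separate animals or separate cultures, so that the p-values measure the spread between these libraries.

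Gvin1 encodes a very large interferon-inducible GTPase, also called VLIG-1. Interferons are secreted signals of infection, and they switch on several families of GTPases (the immunity-related GTPases, the guanylate-binding proteins, the Mx proteins and the very large GTPases) that act inside the cell against microbes. The very large GTPases form a family of neighbouring copies in the mouse, many of them annotated as pseudogenes, and little is known of their role in intestinal epithelium.

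In GENCODE M21 (GRCm38) the 5 genes lie on the minus strand over 436 kb, from 105895139 to 106330688 of chromosome 7, and all 96 rows that the tables list in the interval around them (105004219 to 107006072) had the same positions and strand there. Gm4070 (ENSMUSG00000078606, 105895139 to 105953967) and Gvin1 (ENSMUSG00000045868, 106156556 to 106215326) are annotated as protein coding, each with 4 exons of which 1 holds the whole coding sequence of 7281 bases. Gm8979 (ENSMUSG00000095649, 106076751 to 106084046), Gm27149 (ENSMUSG00000098426, 106091210 to 106092475) and Gm8989 (ENSMUSG00000095457, 106323414 to 106330688) are annotated as unprocessed pseudogenes, that is, copies of the gene made by duplication of DNA. A further 6 genes of the same interval aligned to the Gvin1 transcript over at least 1000 bases. Among them, 9130208D14Rik (ENSMUSG00000086513, 105824223 to 105831515, unprocessed pseudogene) was expressed at a level nearer to that of Gm8979 than to those of the other cluster genes. No aligned gene lay elsewhere in the genome.

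How well the copies can be told apart bears on every value below, so the first 90 bases of the Gvin1 coding sequence, inside its coding exon, are shown with the matching bases of the other copies. Each line is read 5′ to 3′ on the minus strand, and capitals mark bases that differ from Gvin1.
Gvin1, chr7:106165171-106165260: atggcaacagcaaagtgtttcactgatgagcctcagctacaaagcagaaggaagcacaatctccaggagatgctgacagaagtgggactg
Gm4070, chr7:105903754-105903843: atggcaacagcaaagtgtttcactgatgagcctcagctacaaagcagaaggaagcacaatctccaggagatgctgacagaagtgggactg
Gm8979, chr7:106083957-106084046: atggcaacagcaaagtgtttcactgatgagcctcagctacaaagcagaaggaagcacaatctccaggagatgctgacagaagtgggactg
Gm8989, chr7:106330599-106330688: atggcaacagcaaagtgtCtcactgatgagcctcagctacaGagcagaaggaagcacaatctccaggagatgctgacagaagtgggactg
Gm27149, chr7:106092386-106092475: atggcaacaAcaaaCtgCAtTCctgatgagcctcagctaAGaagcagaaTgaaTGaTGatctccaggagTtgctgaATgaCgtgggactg
9130208D14Rik, chr7:105831426-105831515: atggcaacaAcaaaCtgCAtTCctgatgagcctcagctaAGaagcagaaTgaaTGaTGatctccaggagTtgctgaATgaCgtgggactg

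The copies fell into pairs. Over the 90 bases, Gm4070 and Gm8979 did not differ from Gvin1, Gm8989 differed at 2 bases, and Gm27149 and 9130208D14Rik differed at the same 17. Over whole transcripts, Gvin1 and Gm4070 differed at 3 of 9005 aligned positions, Gm8979 and Gm8989 were 98.9% identical, and the 1266 bases of Gm27149 were identical throughout to the start of 9130208D14Rik. Gvin1 was 96.2% identical to Gm8979 and 89.5% identical to 9130208D14Rik.

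Gvin1, Gm4070 and Gm27149 had few or no stretches of sequence of their own, and the other copies had more. Of all 100-base windows, the share found in no other gene's transcripts was 2.25% for Gvin1, 2.27% for Gm4070, 29.0% for Gm8979, 36.5% for Gm8989, 0% for Gm27149 (0 of 1167) and 65.6% for 9130208D14Rik. The sources used here give neither the read length nor how reads that match several places were counted, so the division of reads within a pair is uncertain, in Gm27149 above all. Reading from the start codon, 2427 codons preceded the first stop codon in Gvin1 and Gm4070 and 2430 in 9130208D14Rik, while in Gm8979 a stop codon came after 1535 codons and in Gm8989 after 637.

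**Figure D1:**
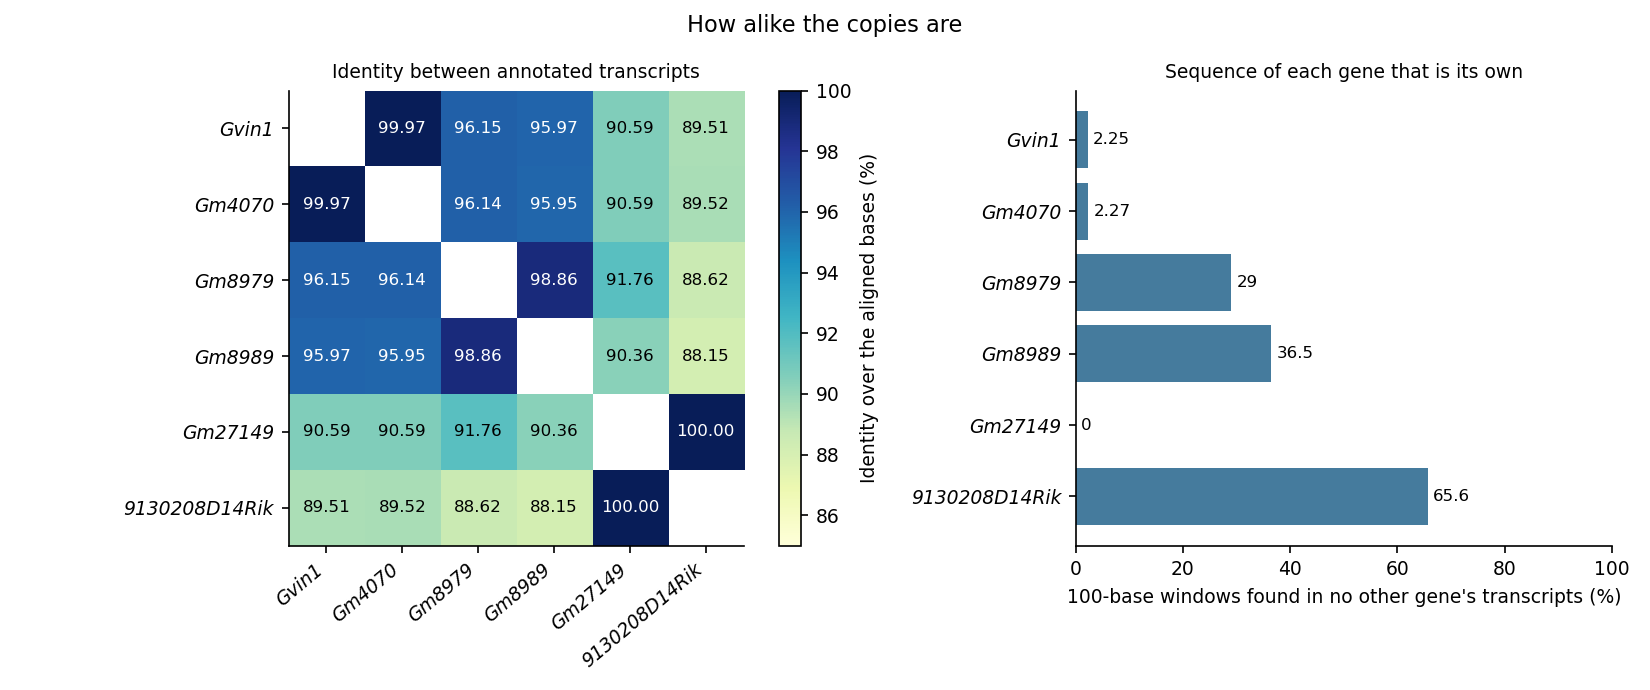
Left, identity (%) over the aligned bases between the annotated transcripts of the 5 cluster genes and 9130208D14Rik, from 88.2% to 100%. Right, share of each gene's 100-base windows that occurs in no other gene's transcripts (%), with Gvin1 and Gm4070 near 2%, and Gm27149 at 0.

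The 16 libraries held 7348191 to 16881395 counts each, so 3 counts correspond to between 0.178 and 0.408 CPM, the unit used below, which is counts scaled to a common library total (with TMM factors in the values below). Cul4b itself was lower in all KO libraries, at 33.9 ± 3.01 CPM (SD, n = 4) in WT crypts against 1.43 ± 0.632 (n = 4) in KOIEC crypts, 78.2 ± 7.07 against 1.72 ± 0.0486 (n = 2 each) in KOIEC organoids, and 71.5 ± 1.97 against 4.26 ± 1.31 (n = 2 each) in KOCAG organoids. Epithelial markers (Epcam, Vil1, Cdh1, Krt8, Krt19) summed to between 5765 and 11073 CPM in every library, and leukocyte markers to 165 to 795 CPM in crypts and at most 6.04 CPM in organoids. The crypt libraries fell into 3 classes of mitochondrial ribosomal RNA, a class under 100 CPM (WT replicate 1 and KO replicates 1, 2 and 3), a class over 2000 CPM (WT replicates 2 and 3) and WT replicate 4 with KO replicate 4 between them, so that the class partly follows the genotype.

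In KOCAG organoids all 5 genes were low. Levels of Gm8979, the most abundant of them, were 1313 and 1109 CPM in the WT libraries and 226 and 228 CPM in the KO libraries. Gvin1 stood at 94.8 and 42.5 CPM in WT against 5.28 and 4.33 CPM in KO. Gm8989 stood at 63.4 and 48.5 CPM in WT against 7.09 and 7.98 CPM in KO. For each of these 3 genes both KO libraries lay far below both WT libraries, and the 2 WT libraries of Gvin1 differed from each other more than the KO libraries did.

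Gm27149 stood at 169 and 97.2 CPM in WT and at 35.3 and 14.1 CPM in KO. Gm4070 was the rarest of the 5, at 5.30 and 2.33 CPM in WT and 0.695 and 0.385 CPM in KO, where it rests on 5 and 4 counts. WT replicate 1 was the higher WT library for all 5 genes.

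The log2 fold changes between KO and WT in the KOCAG experiment were -3.86 for Gvin1 (SE 0.37), -2.88 for Gm8989 (SE 0.17), -2.87 for Gm4070 (SE 0.56), -2.49 for Gm27149 (SE 0.34) and -2.41 for Gm8979 (SE 0.11). In this comparison 2.24% of the 13598 tested genes were called lower at an adjusted p under 0.05 and a change of at least 2-fold, and in 34.2% both KO libraries lay below both WT libraries, but since the genes were chosen on this contrast nothing is read from their own count. Among the 13598 genes, Gvin1 ranked 3rd and Gm8979 21st from the lowest fold change. When single libraries were left out, Gvin1 ran from -4.32 to -3.17 (without WT replicate 1), Gm4070 from -3.33 to -2.16 (without WT replicate 1) and Gm27149 from -3.26 (without KO replicate 1) to -1.92.

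**Figure D2:**
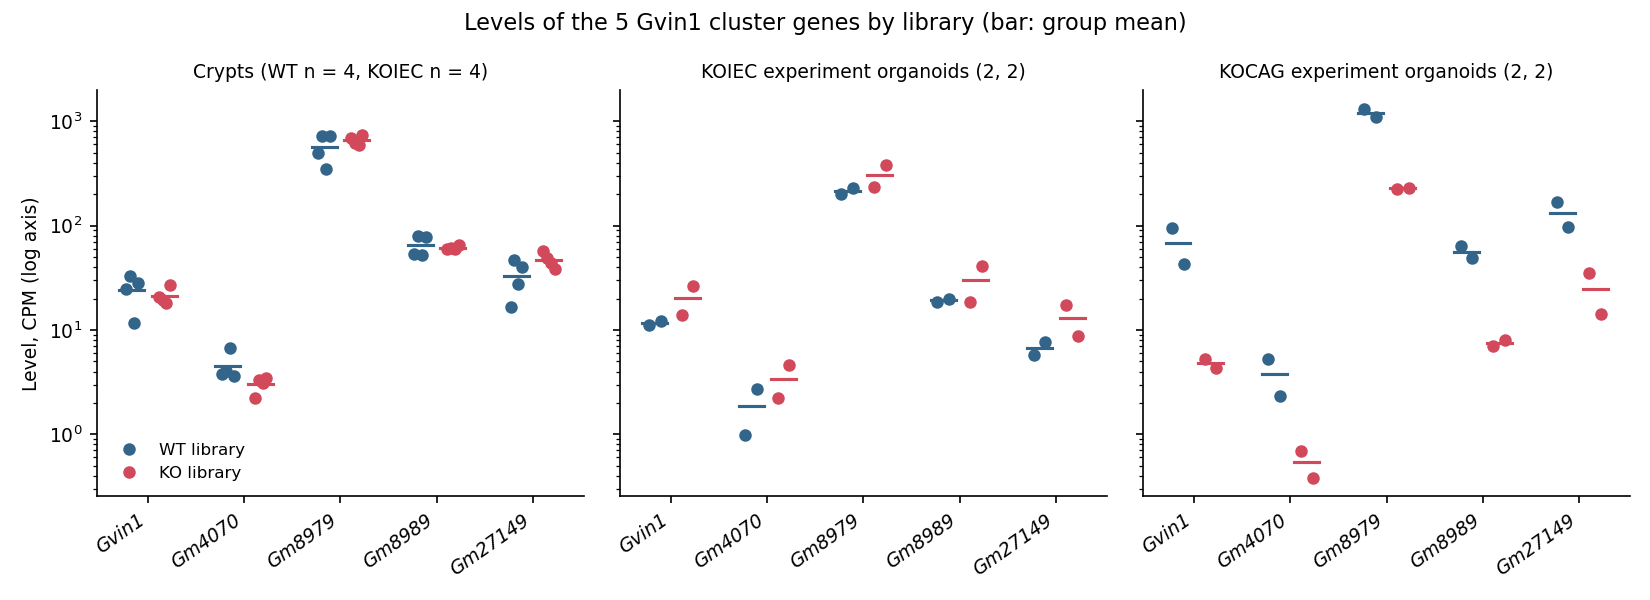
Level of each cluster gene in CPM (log axis) in every library, one point a library and a bar at the group mean, with crypts on the left, organoids of the KOIEC experiment in the middle and organoids of the KOCAG experiment on the right. WT and KO points overlap or lie close in the left and middle panels, and the KO points of the right panel lie below the WT points for every gene, as at 226 and 228 CPM against 1313 and 1109 CPM for Gm8979.

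Because reads can be divided among near-identical copies in different ways, the counts of the 5 genes were also summed in each library. In the KOCAG experiment the sum was 1646 and 1300 CPM in WT organoids and 275 and 255 CPM in KO organoids, a log2 fold change of -2.48 (SE 0.12), or 5.56-fold lower in KO. It ran from -2.64 to -2.31 when single libraries were left out. Summed in the pairs that share most sequence, a choice made after the sequences were compared, Gvin1 with Gm4070 had a log2 fold change of -3.80 (SE 0.37), Gm8979 with Gm8989 of -2.44 (SE 0.11), and Gm27149 with 9130208D14Rik of -1.87 (SE 0.11). Each pair was lower in both KO libraries than in both WT libraries, and whether the pairs differed in size was not tested.

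Sums of several cell type markers also differed between these groups, and those given here did not overlap. Enterocyte markers (Alpi, Apoa4, Krt20) summed to 750 and 909 CPM in WT and to between 2641 and 3195 CPM in KO organoids, and markers of Paneth cells, the secretory cells at the crypt base (Lyz1, Defa24), to at most 3538 CPM in WT and at least 5331 CPM in KO. Epithelial markers were also higher in KO (5765 to 5996 CPM in WT, 7952 to 9021 CPM in KO). Stem cell markers (Lgr5, Ascl2, Olfm4) were lower in KO with the groups barely apart, at 2081 and 2597 CPM in WT against 1764 and 2072 CPM in KO. All 9 leukocyte markers together stayed under 4 CPM in these organoids (0.259 to 0.361 CPM in WT, 3.17 to 3.61 CPM in KO), with Cd8a and Adgre1 at 0. The part of cell makeup in the lower level of the cluster was not tested, and in bulk RNA fewer cells of a type and less RNA per cell cannot be told apart.

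In crypts, where the deletion is confined to the epithelium, none of the 5 genes passed the test, in a comparison in which 1.79% of 13427 genes were called in either direction. None had an unadjusted p under 0.05 in edgeR, against 31.9% of all tested genes, and none passed with DESeq2. The sum of the 5 genes was 589, 892, 447 and 872 CPM in WT crypts and 833, 751, 718 and 876 CPM in KOIEC crypts. The WT libraries ran on either side of the KO libraries, with WT replicates 1 and 3 lowest. The log2 fold change was 0.18 (SE 0.21, edgeR adjusted p = 0.578), with a 95% interval from -0.24 to 0.60. An exact two-sided permutation test over the 8 libraries gave p = 0.429, the smallest p this design allows being 0.0286. Between libraries of the low mitochondrial class the difference was 0.38 (1 WT, 3 KO), and between those of the middle class 0.0064 (1 WT, 1 KO). Enterocyte markers ran from 376 to 1617 CPM in WT and from 1293 to 4341 CPM in KOIEC crypts, and leukocyte markers from 282 to 795 CPM in WT and from 165 to 643 CPM in KOIEC crypts. Stem cell markers ran from 1285 to 2091 CPM in WT and from 791 to 1302 CPM in KOIEC crypts, and Paneth cell markers from 7458 to 13589 CPM in WT and from 1543 to 12021 CPM in KOIEC crypts. The part of these cell types in the cluster's values was not tested.

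Gene by gene, the crypt values lay on both sides of 0. Gm8979 measured 491, 728, 349 and 721 CPM in WT against 694, 618, 594 and 742 CPM in KOIEC crypts, a log2 fold change of 0.21 (SE 0.22, edgeR adjusted p = 0.539). Gvin1 measured 24.4, 32.6, 11.6 and 28.2 CPM in WT against 20.8, 19.5, 18.1 and 27.0 CPM in KOIEC crypts (log2 fold change -0.18, SE 0.28, edgeR adjusted p = 0.681), and the KO range lay within the WT range. Gm8989 had a log2 fold change of -0.11 (SE 0.15, edgeR adjusted p = 0.633). Gm27149 measured 16.7, 47.1, 27.4 and 40.1 CPM in WT against 57.0, 49.5, 43.8 and 38.2 CPM in KOIEC crypts (log2 fold change 0.52, SE 0.28, edgeR adjusted p = 0.229), and its difference was 1.57 within the low mitochondrial class and -0.07 within the middle one.

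Gm4070 was the single cluster gene whose crypt groups did not overlap. It measured 3.76, 4.05, 6.72 and 3.62 CPM in WT against 2.22, 3.28, 3.08 and 3.49 CPM in KOIEC crypts, with WT replicate 3 apart from the others. The log2 fold change was -0.58 (SE 0.26, edgeR adjusted p = 0.160), and 8.79% of all tested genes had every KO crypt library below every WT library. Gm4070 shares 96.6% of its 100-base windows with Gvin1. Their summed pair measured 28.8 ± 7.78 CPM in WT crypts (SD, n = 4) against 24.4 ± 4.17 CPM in KOIEC crypts (n = 4), with overlapping groups and a log2 fold change of -0.24 (SE 0.21, edgeR adjusted p = 0.451).

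In organoids of the KOIEC experiment the sum was 235 and 271 CPM in WT and 286 and 460 CPM in KO, so that both KO libraries lay above both WT libraries, KO replicate 2 by far the more. The log2 fold change was 0.56 (SE 0.27, edgeR adjusted p = 0.857), where an exact permutation test cannot go below p = 0.333. Without KO replicate 1 it was 0.86 with an edgeR adjusted p of 0.0160, which assumes that the remaining KO library varies like the WT libraries, and Gvin1, Gm8989 and Gm8979 also passed in that fit, which called 1118 genes in all. All 5 genes had fold changes above 0, from 0.52 for Gm8979 to 0.96 for Gm27149. None passed the test in the full comparison, in which edgeR called 0.00717% of 13938 genes (Cul4b alone). None had an unadjusted p under 0.05, against 4.66% of all tested genes, and none passed with DESeq2. In the same organoids stem cell markers summed to 1978 and 3074 CPM in WT against 85.2 and 1100 CPM in KO, epithelial markers to 5989 and 7735 CPM in WT against 9317 and 9395 CPM in KO, and enterocyte markers to 1385 and 1714 CPM in WT against 1342 and 3460 CPM in KO. Their part in the values of the cluster was not tested.

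Gm8979 measured 199 and 229 CPM in these WT organoids against 235 and 378 CPM in KOIEC organoids. Gvin1 measured 11.2 and 12.1 CPM in WT against 13.9 and 26.6 CPM in KO. Gm27149 measured 5.70 and 7.70 CPM in WT against 17.2 and 8.85 CPM in KO. In these 3 genes the groups did not overlap, as in 19.4% of all tested genes in the same direction, and KO replicate 2 was the higher KO library for Gm8979 and Gvin1, KO replicate 1 for Gm27149. Gm8989 (18.4 and 19.98 CPM in WT, 18.4 and 41.4 CPM in KO) and Gm4070 (0.979 and 2.72 CPM in WT, 2.23 and 4.59 CPM in KO) overlapped.

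Whether the deletion by pVillin-Cre acted differently in crypts and in organoids was tested in one fit over both experiments. For the sum of the 5 genes the organoid effect minus the crypt effect was 0.41 on the log2 scale (SE 0.39, edgeR adjusted p = 0.986), and for no single gene was the difference past the threshold, the lowest adjusted p being 0.948 for Gm4070 (1.48, SE 0.62, unadjusted p 0.0353). The difference between KOCAG and KOIEC organoids was not tested for these genes, because the KOCAG contrast chose them.

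The levels of the cluster also differed between WT samples of the 3 experiments, which were prepared and scaled separately and are set side by side only. The WT sum ran from 447 to 892 CPM in crypts, from 235 to 271 CPM in organoids of the KOIEC experiment and from 1300 to 1646 CPM in those of the KOCAG experiment. KOCAG organoids, at 255 and 275 CPM, were thus within or just above the range of WT organoids of the KOIEC experiment.

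**Figure D3:**
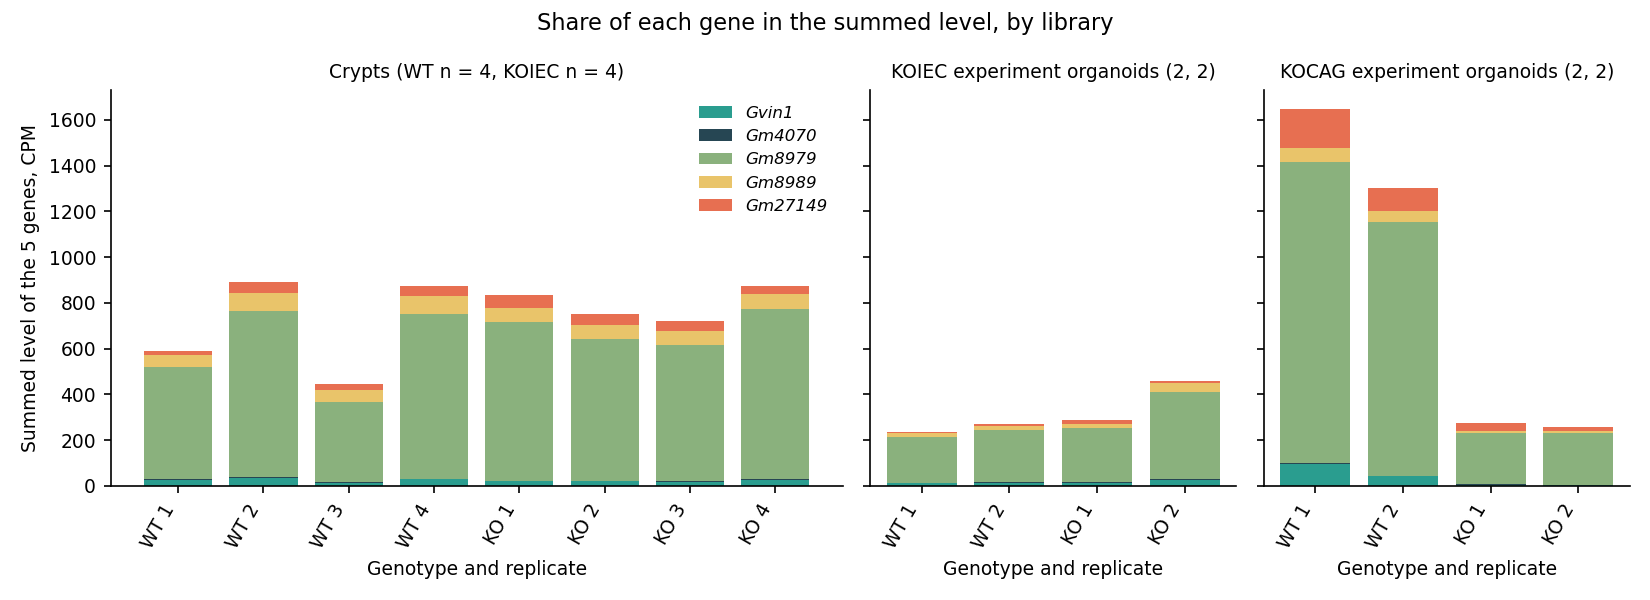
Summed level of the 5 cluster genes in CPM for each of the 16 libraries, stacked by gene. The WT bars of the KOCAG experiment (1646 and 1300 CPM) are the tallest, its KO bars are at 275 and 255 CPM, and Gm8979 makes up most of every bar.

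Gm8979 made up most of the sum in all libraries. Gm8979 held between 78.1% and 89.5% of the summed counts of a library, Gm8989 between 2.58% and 11.7%, Gm27149 between 1.92% and 12.9%, Gvin1 between 1.70% and 5.79% and Gm4070 at most 1.503%. In KOCAG organoids Gvin1 held 1.79% of the pooled counts of the KO libraries against 4.71% of the pooled WT counts. In crypts it held 2.70% against 3.43%, and in KOIEC organoids 5.40% against 4.61%.

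Per kb of gene length the order was Gm8979, Gm27149, Gm8989, Gvin1 and Gm4070 in WT crypts, at mean levels of 78.4, 25.9, 9.06, 2.69 and 0.489 CPM per kb, and the ranges of the 4 libraries did not overlap between neighbours in that order. In WT organoids of the KOIEC experiment the order was the same, and the ranges of the 2 libraries did not overlap between neighbours, from 27.3 and 31.4 CPM per kb for Gm8979 down to 0.106 and 0.293 CPM per kb for Gm4070. In WT organoids of the KOCAG experiment Gvin1 (10.5 and 4.72 CPM per kb) and Gm8989 (8.71 and 6.66 CPM per kb) overlapped and could not be ordered. Per kb of its full length Gvin1, annotated as coding, was measured below 3 copies annotated as pseudogenes in crypts and in KOIEC-experiment organoids. Windows of 100 bases found in no other gene made up 2.25% of Gvin1, 29.0% of Gm8979, 36.5% of Gm8989 and 0% of Gm27149. How reads that match several copies were counted is not known. Whether this order holds for the transcripts themselves was not tested.

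The levels of the copies were correlated over libraries. After subtracting each experiment's mean, the log2 CPM of Gvin1 correlated with that of Gm8979 at r = 0.97 and with that of Gm8989 at r = 0.96 over the 16 libraries, a description that rests largely on the KOCAG contrast and on genes that share libraries, depth and reads. Over the 8 crypt libraries alone, r was 0.82 between Gvin1 and Gm8979, 0.75 between Gm8989 and Gm8979, and -0.72 between Gm4070 and Gm8979. Gm4070 and Gvin1, nearly identical in sequence, had r = -0.41 in crypts, and the ratio of Gvin1 to Gm4070 counts ran from 1.73 (WT replicate 3) to 9.38 (KO replicate 1). Gm27149 had between 1.23% and 6.53% of the counts of 9130208D14Rik in crypts and KOIEC-experiment organoids, and between 5.42% and 19.1% in KOCAG-experiment organoids.

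The genes around the cluster were tested in the same experiments. Of the 96 rows of the interval, 42 are named as olfactory receptors (Olfr), a family hardly expressed outside the nose, and 13 genes other than the cluster were tested in crypts, 12 in KOIEC-experiment organoids and 13 in KOCAG-experiment organoids. In the KOCAG experiment 2 of 13 were called, both lower, against 2.24% called lower among all tested genes. They were 9130208D14Rik and Gm45912 (ENSMUSG00000109685, 105823264 to 105823806), the nearest tested genes to the cluster, with their ends at -63.6 and -71.3 kb from it (negative distances run towards lower coordinates). 9130208D14Rik is itself a copy of the family and Gm45912 lies 416 bases from it, so these are not 2 independent neighbours. Their count is therefore no measure of how far the difference in KOCAG organoids reached.

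9130208D14Rik, the full-length copy of the family that matches Gm27149, fell from 884 and 786 CPM in WT to 224 and 261 CPM in KOCAG organoids. Its log2 fold change was -1.78 (SE 0.11, edgeR adjusted p = 5.94e-06). In crypts it measured 574 to 978 CPM (median 770) in WT against 593 to 914 CPM (median 714) in KO, with a log2 fold change of -0.07 (SE 0.19, edgeR adjusted p = 0.810), and in KOIEC organoids it had a log2 fold change of 0.25 (SE 0.19, edgeR adjusted p = 0.856). The KOCAG effect minus the crypt effect was -1.72 (SE 0.30), and minus the KOIEC organoid effect it was -2.04 (SE 0.21). These differences are a description with no test, since they were taken for genes that had passed in the KOCAG contrast. This copy also shares sequence with the cluster genes. Reads of its first 1266 bases cannot be told from those of Gm27149, and 65.6% of its 100-base windows occur in no other gene.

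Gm45912 is a transcript model still to be experimentally checked in the annotation, on the same strand and 416 bases downstream of 9130208D14Rik. It aligned to no transcript of the family or of any other gene. It fell from 89.5 and 82.0 CPM in WT to 26.4 and 26.3 CPM in KOCAG organoids, a log2 fold change of -1.70 (SE 0.10, edgeR adjusted p = 5.52e-06). In crypts it measured 153, 152, 175 and 123 CPM in WT against 126, 105.1, 94.5 and 87.2 CPM in KO, where WT replicate 4 overlapped KO replicate 1 (log2 fold change -0.55, SE 0.14, edgeR adjusted p = 0.0518, DESeq2 adjusted p = 0.00815). In KOIEC organoids its log2 fold change was 0.27 (SE 0.21, edgeR adjusted p = 0.856). The KOCAG effect minus the crypt effect was -1.17 (SE 0.22), and minus the KOIEC organoid effect it was -1.98 (SE 0.23), likewise a description with no test.

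Of the other 11 neighbours 2 passed by adjusted p alone, both higher in KO, which is 2 of 13 neighbours beside 18.1% of all tested genes that rose by that rule, so that the count is no result about the neighbours. Mrpl17, a protein of the mitochondrial ribosome whose gene ends at -84.0 kb, measured 55.8 and 51.7 CPM in WT against 67.7 and 65.8 CPM in KOCAG organoids. Its log2 fold change was 0.31 (SE 0.09, edgeR adjusted p = 0.0277), and it no longer passed with DESeq2 (adjusted p = 0.150), without WT replicate 1 (0.0935) or without WT replicate 2 (0.246). Tpp1, a lysosomal peptidase named after its values were seen, rose by 0.50 on the log2 scale (SE 0.09, edgeR adjusted p = 0.00187). The other 9 of the 13 did not pass, and their median together with these 4 was 0.23, against 0.00 over all tested genes.

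On the side of Gm8989 no other gene of the interval was tested in organoids. Gm8995, a copy of the family 91.8% identical to Gvin1, was tested in crypts alone, at 1.12 to 5.47 CPM in WT and 2.75 to 7.85 CPM in KO (log2 fold change 0.85, SE 0.53, edgeR adjusted p = 0.285), and had 0 or 1 counts in each KOCAG-experiment library. The nearest tested gene beyond, Ppfibp2, starts 1265 kb from the cluster and had a log2 fold change of -0.10 (SE 0.11, edgeR adjusted p = 0.494) in the KOCAG experiment. Of the remaining family copies, Gm1966 and Gm4759 had at most 18 counts in any library, and Gm18852 and Gm18853 at most 1.

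In crypts and KOIEC organoids no neighbour was called. In crypts 1 of 13, Fam160a2, named after its values were seen, passed by adjusted p alone (log2 fold change 0.47, SE 0.09, edgeR adjusted p = 0.0407), as 6.96% of all tested genes did. It did not pass without WT replicate 1, 2 or 3, without KO replicate 2 or 3, with the replicate number as a block (edgeR adjusted p = 0.0891), with the mitochondrial class as a covariate (0.211) or without both WT libraries of the high class (0.391). Its log2 fold change was between 0.39 and 0.53 in all these alternatives and the others run. In edgeR 2 of the 13 had an unadjusted p under 0.05, beside 31.9% of all tested genes. By adjusted p alone 2 passed with DESeq2, Fam160a2 and Gm45912, and DESeq2 called none at 2-fold. The share of all genes that passed with DESeq2 by adjusted p alone is not given here. In KOIEC organoids 0 of 12 passed, 0 had an unadjusted p under 0.05 and DESeq2 called none. The median over the neighbours was -0.15 in crypts and -0.0045 in KOIEC organoids.

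**Figure D4:**
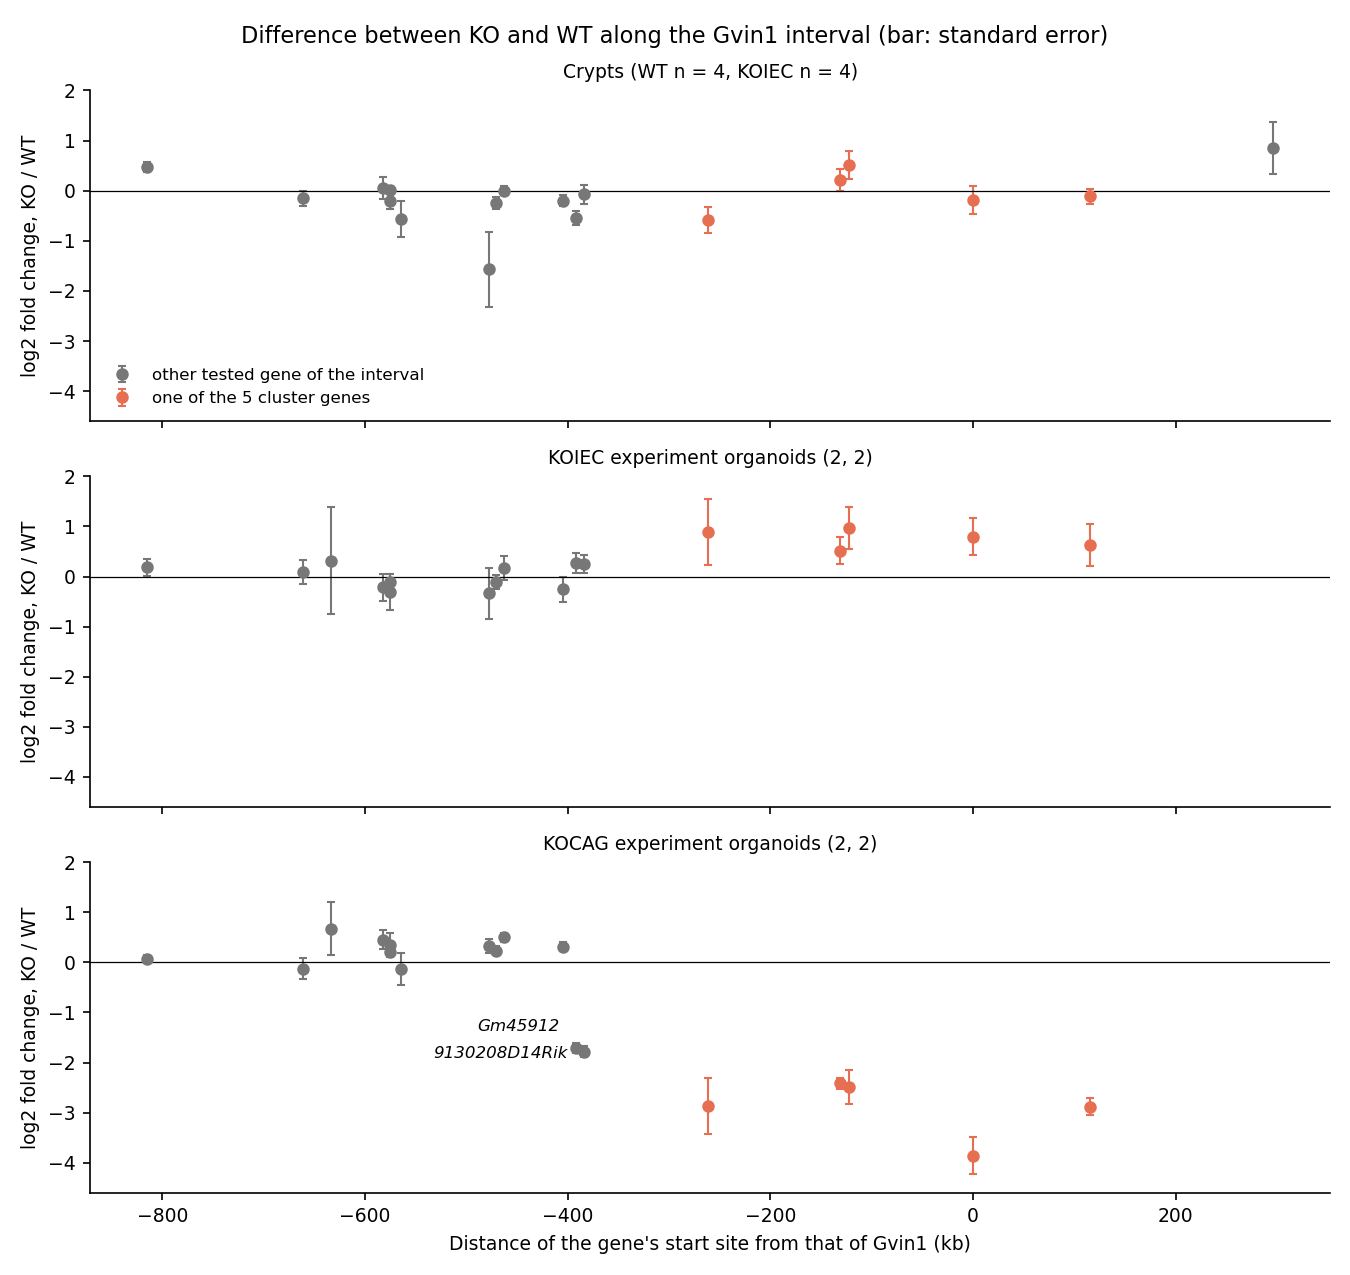
Log2 fold change between KO and WT, with its standard error, of each tested gene of the interval against the distance of its start site from that of Gvin1 (kb), with the cluster genes in orange and other genes in grey. In the KOCAG experiment (bottom) the cluster genes lie between -3.86 and -2.41, 9130208D14Rik and Gm45912 at -1.78 and -1.70, and the other genes near or above 0, while in crypts (top) and KOIEC organoids (middle) the cluster genes lie between -0.58 and 0.96.

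Since Gvin1 is named for its response to interferon, 2 companion lists were read from the same fits. They held 25 other genes from families of interferon-inducible GTPases and 40 genes of the interferon response. The first list rests on family membership, and the response of each of its genes to interferon was not tested. In KOCAG organoids, where the Gvin1 cluster was low, 24 of 32 tested interferon response genes rose and 0 fell by adjusted p, with a median log2 fold change of 0.96, against 0.00 for all tested genes, of which 18.1% rose by the same rule. With DESeq2 16 of the 32 passed, all higher. Among those that passed in both were the ubiquitin-like modifier Isg15 (log2 fold change 2.49, SE 0.41, edgeR adjusted p = 0.00149) and the viral RNA sensor Oas3 (2.46, SE 0.58, edgeR adjusted p = 0.00958), both scarce, with at most 0.907 CPM in WT and at most 5.70 CPM in KO libraries. Nlrc5, a regulator of antigen presentation genes, was at 0 and 0.259 CPM in WT, under the level of 3 counts, and at 1.39 and 1.63 CPM in KO, so no fold is given. It passed with edgeR (adjusted p = 0.00839) and was not among the 16 genes that passed with DESeq2.

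Of the other GTPases 5 of 25 were tested in KOCAG organoids, with a median of -0.02. One of them, Irgq, rose by 0.39 on the log2 scale (SE 0.11, edgeR adjusted p = 0.0217), and 0 passed with DESeq2 or without WT replicate 1 or 2. Irgm1, a regulatory immunity-related GTPase named after its values were seen, had a log2 fold change of 0.15 (SE 0.14, edgeR adjusted p = 0.442).

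In crypts 29 of 39 tested interferon response genes rose and 0 fell by adjusted p, beside 4.30% of all tested genes that rose by that rule, with a median of 1.32 against -0.01 for all tested genes. Trim30a (2.79, SE 0.42), Ifi44 (2.47, SE 0.47) and Oas3 (2.33, SE 0.32) had the largest changes, with edgeR adjusted p of 0.0258, 0.0397 and 0.0226. With the mitochondrial ribosomal RNA class as a covariate 0 of the 39 passed, also without WT replicates 2 and 3 together, and between 1 and 30 passed when single libraries were left out, with 1 of them without WT replicate 2, KO replicate 2 or KO replicate 3. Of the other GTPases 0 of 16 passed with edgeR, and 7 had an unadjusted p under 0.05, beside 31.9% of all tested genes. With DESeq2 5 passed, all higher, and the share of all genes that passed by that rule is not given here. The edgeR median of the 16 was 0.74, against -0.01 for all tested genes, with 15 of 16 above 0. The median of the 5 cluster genes in the same fit was the value of Gm8989, -0.11.

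In KOIEC organoids 0 of 27 interferon response genes and 0 of 6 GTPases passed with edgeR or DESeq2, 2 and 0 of them having an unadjusted p under 0.05. Their medians were 0.15 and -0.13.

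**Figure D5:**
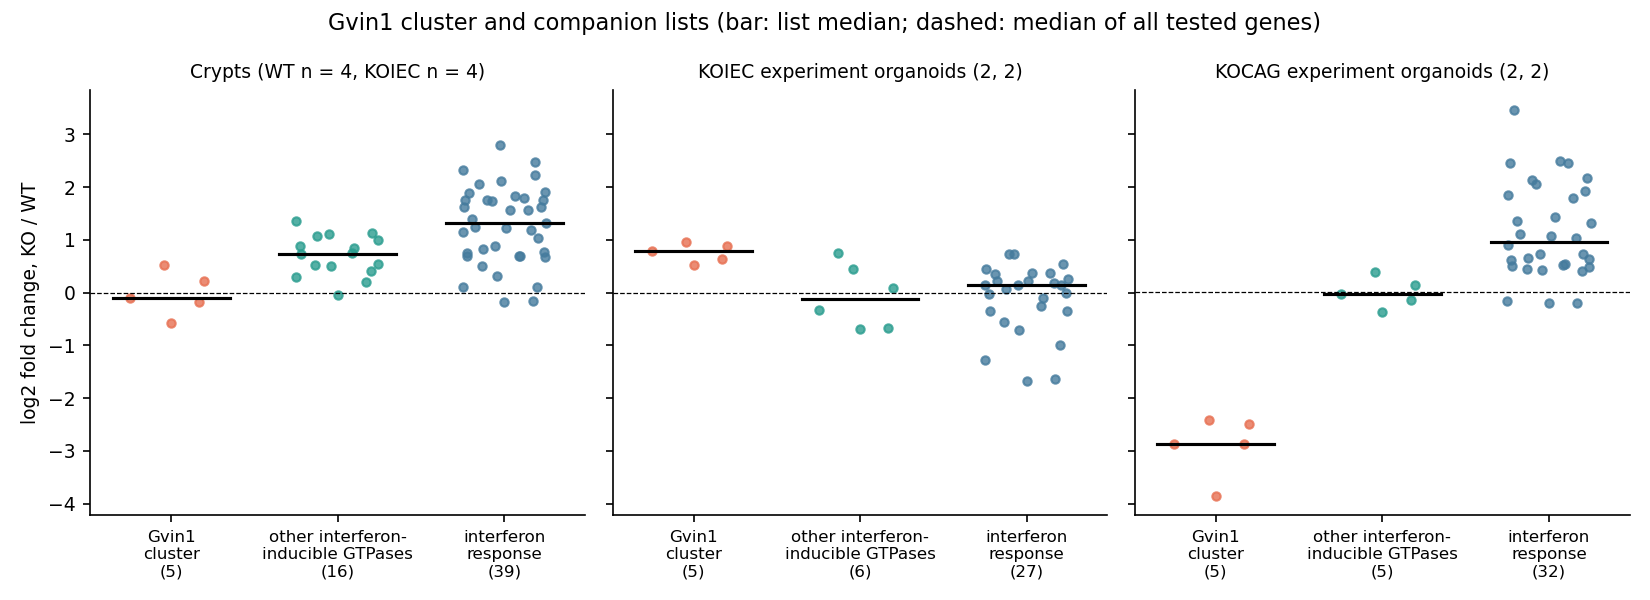
Log2 fold change between KO and WT of each tested gene of the Gvin1 cluster and of the 2 companion lists, with the number of genes under each, a bar at the list median and a dashed line at the median of all tested genes. In KOCAG organoids (right) the interferon response list has a median of 0.96 while all 5 cluster genes lie below -2.4, and in crypts (left) the medians are 1.32 for that list and 0.74 for the GTPases.

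The genes whose pattern over the 16 libraries was most like that of the summed cluster, among 12473 genes tested in all 3 experiments, were Luc7l2 (Pearson r = 0.93), Mindy2 (0.92), Tfdp2 (0.91), Gid4 (0.89) and Sun1 (0.89), with each experiment's mean subtracted. None lies on chromosome 7. Their log2 fold changes in KOCAG organoids ran from -0.78 to -0.35, against -2.48 for the sum. Within the 8 crypt libraries their r ran from 0.25 for Tfdp2 to 0.64 for Luc7l2. The ranking is a description that rests largely on the KOCAG contrast, which chose the cluster genes.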

How the data were processed

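Whole-transcriptome libraries from mouse crypts and intestinal organoids were compared between Cul4b KO and WT within each of 3 experiments. The deposited values were raw read counts per gene. The submitters' processing notes name HISAT2 2.0.5 and featureCounts 1.5.0-p3, and the genome build, annotation, strand setting and handling of reads with several matches are not given in the sources used here. Deposited gene lengths were used for CPM per kb, and positions were taken from the tables, which matched GENCODE M21 (GRCm38) for the interval.

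Genes passing filterByExpr (13427, 13938 and 13598) were TMM-scaled and tested with edgeR 4.0.16 (quasi-likelihood F test, R 4.3.3) and p-values were adjusted by the Benjamini-Hochberg method across the whole set of tested genes, in a design without the replicate number. A gene was called at an adjusted p under 0.05 and a fold change of at least 2. Sums replaced the 5 rows by 1 row of summed counts. Exact two-sided permutation tests used log2 CPM with a prior count of 2. Differences between experiments were interaction terms of a joint fit. The standard error (SE) of a log2 fold change is its absolute value divided by the square root of the F statistic. The interval of 1.960 SE on either side is a normal approximation, which runs narrow with few libraries. Transcripts were aligned with blastn 2.17.0, with a minimum of 1000 aligned bases. The 5 genes, the companion lists and the rules for naming genes were chosen with earlier results of these data known. Named were the 5 genes, neighbours that were called or among the 3 nearest tested on each side, Cul4b, the 5 genes most like the sum and up to 3 companion list genes per direction. Depth was 7348191 to 16881395 counts per library, and same-group libraries differed by more than counting noise (lowest chi-square per degree of freedom 4.03 over 16 pairs). The fitting code was tested on simulated counts. DESeq2 1.42.0, other scalings and filters, the replicate number as a block, the mitochondrial RNA class and leaving out libraries were alternatives.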

Additional observations from a re-analysis of the deposited data

Results flagged for a closer look

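Gm4070 in WT crypts was picked out because WT replicate 3, at 6.72 CPM, stood apart from the other 3 WT libraries, with a gap of 0.859 of the group's whole range. Chance alone flags about 1 in 20 groups by this criterion. The same library had the lowest ratio of Gvin1 to Gm4070 counts, 1.73.

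Several cluster values lay on opposite sides of 0 in the 2 organoid experiments, with every KOIEC library above and every KOCAG library below its WT libraries, and the difference was not tested because the KOCAG contrast chose the genes. These were the sum of the 5 genes (log2 fold change 0.56 in KOIEC and -2.48 in KOCAG organoids), Gvin1 (0.79 and -3.86), Gm27149 (0.96 and -2.49) and Gm8979 (0.52 and -2.41). Gm8989 and Gm4070 overlapped in KOIEC organoids. Of all tested genes, 19.4% had both KOIEC libraries above both WT libraries, and 34.2% had both KOCAG libraries below both WT libraries.

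Of the genes beside the cluster, 9130208D14Rik had an effect in KOCAG organoids that differed from the effect in crypts by -1.72 (SE 0.30) and from that in KOIEC organoids by -2.04 (SE 0.21). Gm45912 had an effect in KOCAG organoids that differed from the effect in crypts by -1.17 (SE 0.22). Both genes had been called in the KOCAG contrast, so these differences are a description with no test.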

How the results depend on the processing

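Among the values that changed direction, Gm8989 in KOIEC organoids passed the test without KO replicate 1 and the others passed in no fit. In crypts Gm8989 was at 0.0031 without WT replicate 4 (range over libraries left out -0.21 to 0.0031), and 9130208D14Rik at 0.16 with the mitochondrial RNA class as a covariate, 0.20 without WT replicates 2 and 3, 0.058 without WT replicate 3 and 0.024 without KO replicate 4 (range -0.20 to 0.058). In KOIEC organoids Gm8989 was at -0.061 without KO replicate 2 (range -0.061 to 1.11), and the effect on the sum in organoids minus that in crypts was -0.016 without that library (range -0.016 to 0.69). The sum in KOIEC organoids ran from 0.18 to 0.86. In KOCAG organoids the sum was -2.20 with 9130208D14Rik added and -2.83 with Gm8979 left out, both chosen after the data were seen.

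Counts of called genes depended on the setting. In crypts 240 genes became 527 without a low-count filter, 515 with DESeq2, 4 with the replicate block, 2 with the class covariate and 1 without WT replicates 2 and 3 (2 to 643 over libraries left out). The GTPases passing there became 3 without the filter, 1 with at least 10 counts in every library and 5 with DESeq2 (0 to 2), and the 29 interferon response genes became 2 with the block and 0 in both fits for the class (1 to 30). In KOIEC organoids 1 gene became 185 without the filter and 26 with DESeq2 (0 to 1118), with 0 to 1 neighbours, 0 to 1 GTPases and 0 to 2 interferon response genes over libraries left out. In KOCAG organoids 1 GTPase became 2 without the filter and 0 with DESeq2 (0 to 1). With library-size scaling the share of crypt calls that were higher was 70.3% in place of 80.8%. The cause of these shifts was not tested.

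Same-numbered libraries shared only a number, with correlations of their deviations from -0.40 to 0.43 in crypts (2 of 4 WT libraries best with their own number), 0.34 in KOIEC and 0.067 in KOCAG organoids. With the replicate block the sum was at 0.24 in crypts (edgeR adjusted p = 0.428), 0.52 in KOIEC organoids (0.722) and -2.47 in KOCAG organoids, and the organoid effect minus the crypt effect at 0.31 (0.947).

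With 2 libraries a group in organoids, 1 library can decide a value. Gm4070 rested on few counts and had no value in KOCAG organoids under the filter of 10 counts.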
